A study of Mus musculus with 11 samples.

Results

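The 10 genes described here encode elastin, the fibrillins and the glycoproteins that lie with them in elastic fibres and microfibrils, namely Eln, Fbn1, Fbn2, Mfap2, Mfap5, Fbln1, Fbln2, Fbln5, Efemp2 and Emilin1. They were chosen by gene symbol, with earlier results of these data known. All 10 were present among the 22600 genes of the merged count table and among the 16496 genes with enough counts to test. RNA came from whole distal tibiae of C57BL6/SJL mice fed ad libitum, 24 weeks old by the sample labels, with 1 library per mouse. The groups were 4 Control mice, labelled BMAd-WT, and 7 BMAd-DTA mice. The study describes its mice as carrying Osterix-FLPo and FAC, an Adipoq-Cre at the endogenous Adipoq locus that works only after FLPo has turned it around, so the controls carry the Cre as well. BMAd-DTA mice carry in addition ROSA-DTA, in which Cre removes a stop cassette and BM adipocytes then make the A chain of diphtheria toxin, which kills them. By the study's account, recombination increases with age and also reaches a small subset of adipocyte-lineage precursors of the marrow.

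Elastic fibres give tissues stretch and recoil. They are built on microfibrils, which are strings of fibrillin molecules decorated with microfibril-associated glycoproteins. Tropoelastin, the product of Eln, is laid on the microfibrils with the help of fibulins and is then crosslinked by lysyl oxidases. Microfibrils also occur without elastin. In bone they lie in the matrix made by osteoblasts and in the periosteum, where they bind latent TGF-beta and BMP complexes. Smooth muscle cells of arteries and fibroblasts of tendon, periosteum and perichondrium make elastin and fibrillin as well.

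The promoters of 3 genes are shown because Mfap2 and Efemp2 were the members with the smallest p values for a higher level in BMAd-DTA mice and Fbln1 was the 1 member whose fitted level was lower. RefSeq entries on GRCm38.p6 were given for 7 of the 10 members, in 12 windows, and not for Eln, Fbn2 and Mfap5. Each stretch below runs 5′ to 3′ on the strand of the gene and ends at or just before the start site, with exonic bases left out. Capitals mark a GC box, the letters GGGCGG on either strand.
Mfap2, chr4:141010174-141010417, plus strand: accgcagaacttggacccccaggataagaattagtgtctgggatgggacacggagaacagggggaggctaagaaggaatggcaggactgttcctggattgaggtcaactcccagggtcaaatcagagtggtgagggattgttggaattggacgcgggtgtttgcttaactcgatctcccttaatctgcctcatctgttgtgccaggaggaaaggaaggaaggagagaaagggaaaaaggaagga
Efemp2, chr19:5473696-5473945, plus strand: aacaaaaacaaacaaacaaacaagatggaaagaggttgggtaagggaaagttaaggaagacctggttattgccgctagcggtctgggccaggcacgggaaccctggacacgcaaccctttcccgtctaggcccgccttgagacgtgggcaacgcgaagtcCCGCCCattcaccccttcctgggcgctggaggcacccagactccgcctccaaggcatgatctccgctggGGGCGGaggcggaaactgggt
Fbln1, chr15:85205699-85205948, plus strand: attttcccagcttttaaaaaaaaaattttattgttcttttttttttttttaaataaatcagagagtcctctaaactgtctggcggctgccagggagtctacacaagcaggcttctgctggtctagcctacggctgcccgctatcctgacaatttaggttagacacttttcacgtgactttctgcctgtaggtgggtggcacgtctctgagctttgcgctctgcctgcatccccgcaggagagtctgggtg
The Efemp2 stretch holds 2 GC boxes, which begin 90 and 21 bases before its start site. The Mfap2 and Fbln1 stretches hold none, but a GC box was found in the window of another RefSeq start site of each of these genes. Over the 250 bases before each start site, here with exonic bases kept, a GC box was present in 8 of the 12 windows. It was present in 32.7% of 32841 RefSeq promoters of that length. Counted by member, where any window with a box is enough, it was in 6 of the 7, all but Emilin1. That count has no matching share over all genes. Windows of a gene can overlap, as windows 2 and 3 of Efemp2 do (from 5474440 and from 5474485), so they are not separate observations. The windows of Fbn1, Fbln2 and Emilin1 were exonic over all 250 bases. A TATA box (TATAAA), the RUNX core (TGTGGT) and the AP-1 site (TGANTCA), each searched on both strands, were in 0 of the 12 windows, against 12.4%, 14% and 6.75% of all promoters. These are matches of letters and no evidence that a factor binds.

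The libraries had 16969529 to 18637663 counts assigned to genes of the merged table. Over all 11 libraries the members were covered by 1134 counts for Mfap5, the least, up to 37084 for Fbln5, the most. Levels are given as CPM, the counts of a gene relative to the TMM-scaled library size. Differences are log2 fold changes of BMAd-DTA against Control from edgeR's quasi-likelihood test, with its standard error and a p value adjusted by the Benjamini-Hochberg method over all genes tested. The legends of the study's figures that show the RNA-Seq describe male mice, while some other legends describe female mice. In every library, however, Xist had 13810 to 20260 counts and 4 genes of the Y chromosome together had 0 or 1, which is the pattern of female mice. In whole bone, a lower or higher level may come from fewer or more cells of a type or from less or more RNA per cell, and these cannot be told apart.

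The fitted level in BMAd-DTA mice was above that in controls for 9 of the 10 members and below it for 1. Their median log2 fold change was 0.29, where 50.4% of all genes tested had a positive value and their median was 0.0018. None of the 10 had an adjusted p under 0.05 by edgeR, which called 0.0788% of all genes, 0.0727% as higher and 0.00606% as lower. An unadjusted p under 0.05 was found for 4 members, all higher (Mfap2, Efemp2, Fbn2 and Fbln5), and for 16.4% of all genes, 7.89% higher and 8.53% lower. DESeq2, the tool of the study's methods, called 3 members higher (Mfap2, Efemp2 and Fbn2) and 0 lower, where it called 5.42% of all genes, 2.78% higher and 2.64% lower. For Mfap2 and Fbn2 each BMAd-DTA library lay above each control library, which was so for 1.78% of all genes, with 1.04% separated in the opposite direction.

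**Figure D1:**
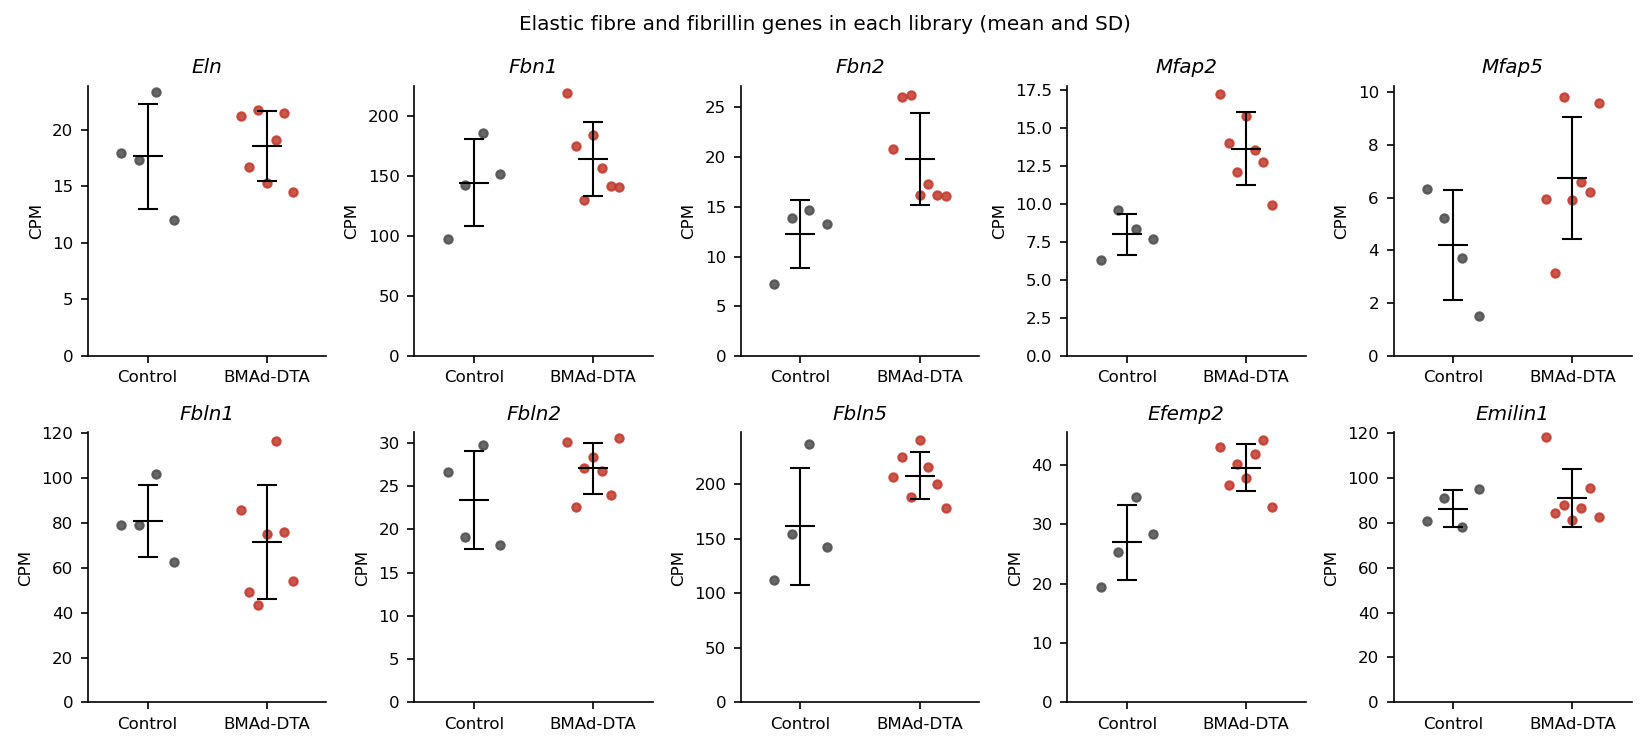
Level of the 10 members in each library, in CPM on an axis from 0. Each point is 1 mouse (4 Control in grey, 7 BMAd-DTA in red), and bars give the mean and the SD. The groups are apart for Mfap2 and Fbn2, overlap by 1 BMAd-DTA mouse for Efemp2, and overlap widely for Eln, Fbn1, Fbln1 and Emilin1.

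Eln encodes tropoelastin, the elastic core of the fibre (chromosome 5, 134702593 to 134747323 of GRCm38, minus strand). Its level was 17.9, 17.3, 23.3 and 12.0 CPM in the 4 controls, and 14.4 CPM at the lowest, 19.1 at the median and 21.7 at the highest in BMAd-DTA mice. All 7 BMAd-DTA mice lay within the control range. The group means were 17.6 ± 4.62 CPM in controls (SD, n = 4) and 18.5 ± 3.09 CPM in BMAd-DTA mice (SD, n = 7). The log2 fold change was 0.075 (standard error 0.17, 95% interval -0.29 to 0.44, adjusted p = 0.874 from edgeR's test), an interval that leaves room for changes of either sign. Without Control replicate 4, the control with the lowest level, the value turned to -0.073.

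Fibrillin-1 is the main microfibril protein of adult tissue, and fibrillin-2 is made mostly during development and in growing or healing tissue. Fbn1 (chromosome 2, 125300594 to 125507993, minus strand) was at 97.2, 143, 186 and 152 CPM in controls and ran from 130 to 219 CPM with a median of 157 in BMAd-DTA mice. Only 1 BMAd-DTA mouse was above every control. The log2 fold change of Fbn1 was 0.18 (standard error 0.17, 95% interval -0.18 to 0.54, adjusted p = 0.642 in edgeR's test). Fbn2 (chromosome 18, 58008623 to 58210487, minus strand) was lower in abundance, at 7.27, 13.8, 14.7 and 13.3 CPM in controls, and ran from 16.1 to 26.2 CPM with a median of 17.3 in BMAd-DTA mice. The groups did not overlap, with the highest control at 14.7 CPM and the lowest BMAd-DTA mouse at 16.1. Mean levels of Fbn2 were 12.3 ± 3.39 CPM in controls (SD, n = 4) and 19.8 ± 4.61 CPM in BMAd-DTA mice (SD, n = 7), a fitted 1.62-fold difference. Its log2 fold change was 0.69 (standard error 0.21, 95% interval 0.24 to 1.14), with an unadjusted p of 0.0053 and an adjusted p = 0.124 by edgeR, and an adjusted p = 0.0228 by DESeq2. Control replicate 1 had the lowest level of both fibrillin genes. Without it the log2 fold change was 0.034 for Fbn1 and 0.51 for Fbn2.

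The microfibril-associated glycoproteins Mfap2 (MAGP-1) and Mfap5 (MAGP-2) bind fibrillin and are not related to it. Mfap2 (chromosome 4, 141010418 to 141015984, plus strand) was at 6.34, 9.60, 8.33 and 7.67 CPM in controls. In BMAd-DTA mice it was at 9.91 CPM in the lowest, 13.5 at the median and 17.2 in the highest. The groups did not overlap, by a narrow margin at the nearest point (9.91 against 9.60 CPM). Mean levels were 7.99 ± 1.36 CPM in controls (SD, n = 4) and 13.6 ± 2.40 CPM in BMAd-DTA mice (SD, n = 7), a fitted 1.70-fold difference. This was the largest log2 fold change of the 10 members (0.77, standard error 0.16, 95% interval 0.43 to 1.11), with an adjusted p = 0.0675 by edgeR and 0.000586 by DESeq2. Of all genes tested 3.11% had a value at least as high. Mfap5 (chromosome 6, 122505845 to 122529290, plus strand) was at 6.34, 5.24, 3.72 and 1.5 CPM in controls and ran from 3.15 to 9.82 CPM with a median of 6.22 in BMAd-DTA mice. The spread among mice was wide in both groups, and 3 of the 7 BMAd-DTA libraries exceeded all controls. For Mfap5 the log2 fold change was 0.69 (standard error 0.36, 95% interval -0.085 to 1.46, adjusted p = 0.357 in edgeR's test), close to that of Fbn2 in size but with a wider error, on the smallest number of counts of any member. It was 0.40 without Control replicate 4 and 0.96 without Control replicate 1.

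Fibulins bridge tropoelastin, fibrillin and the crosslinking enzymes. Fibulin-4, the product of Efemp2, recruits lysyl oxidase to tropoelastin, and fibulin-5 guides elastin onto microfibrils. Efemp2 (chromosome 19, 5473954 to 5482517, plus strand) was at 19.4, 25.4, 34.6 and 28.5 CPM in controls and ran from 33.0 to 44.3 CPM with a median of 40.1 in BMAd-DTA mice. In BMAd-DTA mice 6 of 7 values exceeded all controls, and the remaining one, at 33.0 CPM, was below Control replicate 3 alone. Mean levels of Efemp2 were 27 ± 6.34 CPM in controls (SD, n = 4) and 39.6 ± 3.97 CPM in BMAd-DTA mice (SD, n = 7), a fitted 1.47-fold difference. The log2 fold change was 0.55 (standard error 0.13, 95% interval 0.26 to 0.84), with an adjusted p = 0.0798 by edgeR and 0.00429 by DESeq2. Efemp2 shares 173 exonic bases with Mus81 on the other strand. Fbn1 (2442 bases with Gm9913), Eln (267 with Gm30003) and Fbn2 (129 with Gm26507) have such overlaps too. At most 1.62% of the stranded counts of any member lay on the strand opposite to the gene.

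Fbln5 (chromosome 12, 101746565 to 101819055, minus strand) was at 112, 154, 237 and 143 CPM in controls and ran from 179 to 241 CPM with a median of 207 in BMAd-DTA mice. Of the controls 3 lay below every BMAd-DTA mouse and Control replicate 3 lay above 6 of the 7. Its log2 fold change was 0.36 (standard error 0.16, 95% interval 0.021 to 0.71), with an unadjusted p of 0.0394 and an adjusted p = 0.273 by edgeR, and 0.172 by DESeq2. Without Control replicate 3 the value was 0.61 (adjusted p = 0.0390), and without Control replicate 1 it was 0.22. Under the first of these settings Mfap2 (adjusted p = 0.0497) and Efemp2 (adjusted p = 0.0373) passed in edgeR's test too, and 292 genes passed in all, against 13 with every mouse.

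Fibulin-1 and fibulin-2 occur in elastic fibres and in basement membranes and bind fibronectin and proteoglycans. Fbln1 (chromosome 15, 85205949 to 85286535, plus strand) was at 79.0, 79.1, 102 and 62.8 CPM in controls and ran from 43.3 to 117 CPM with a median of 75.2 in BMAd-DTA mice, of which 1 was above and 3 were below every control. The log2 fold change of -0.18 (standard error 0.23, 95% interval -0.68 to 0.33, adjusted p = 0.766 in edgeR's test) was smaller than its error. Fbln2 (chromosome 6, 91212455 to 91272540, plus strand) was at 26.6, 19.1, 29.8 and 18.1 CPM in controls and ran from 22.5 to 30.5 CPM with a median of 27.1 in BMAd-DTA mice. Its controls formed a higher and a lower pair, 2 of the 7 BMAd-DTA mice lay between the pairs, and the other 5 lay above the lower value of the higher pair. The log2 fold change of Fbln2 was 0.21 (standard error 0.14, 95% interval -0.089 to 0.51, adjusted p = 0.483 in edgeR's test). With 1 mouse left out it ran from 0.11 (without Control replicate 4) to 0.35 (without Control replicate 3), and that of Fbln1 from -0.34 (without BMAd-DTA replicate 5) to -0.042 (without Control replicate 3).

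Emilin-1 sits at the interface of elastin and microfibrils and restrains TGF-beta processing. Emilin1 (chromosome 5, 30913402 to 30921277, plus strand) was at 80.8, 91.0, 78.2 and 95.2 CPM in controls and ran from 81.3 to 118 CPM with a median of 86.4 in BMAd-DTA mice. It had the narrowest error of the members (log2 fold change 0.075, standard error 0.10, 95% interval -0.14 to 0.29, adjusted p = 0.772 in edgeR's test). Without BMAd-DTA replicate 1, the highest of all 11, it was 0.0013.

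**Figure D2:**
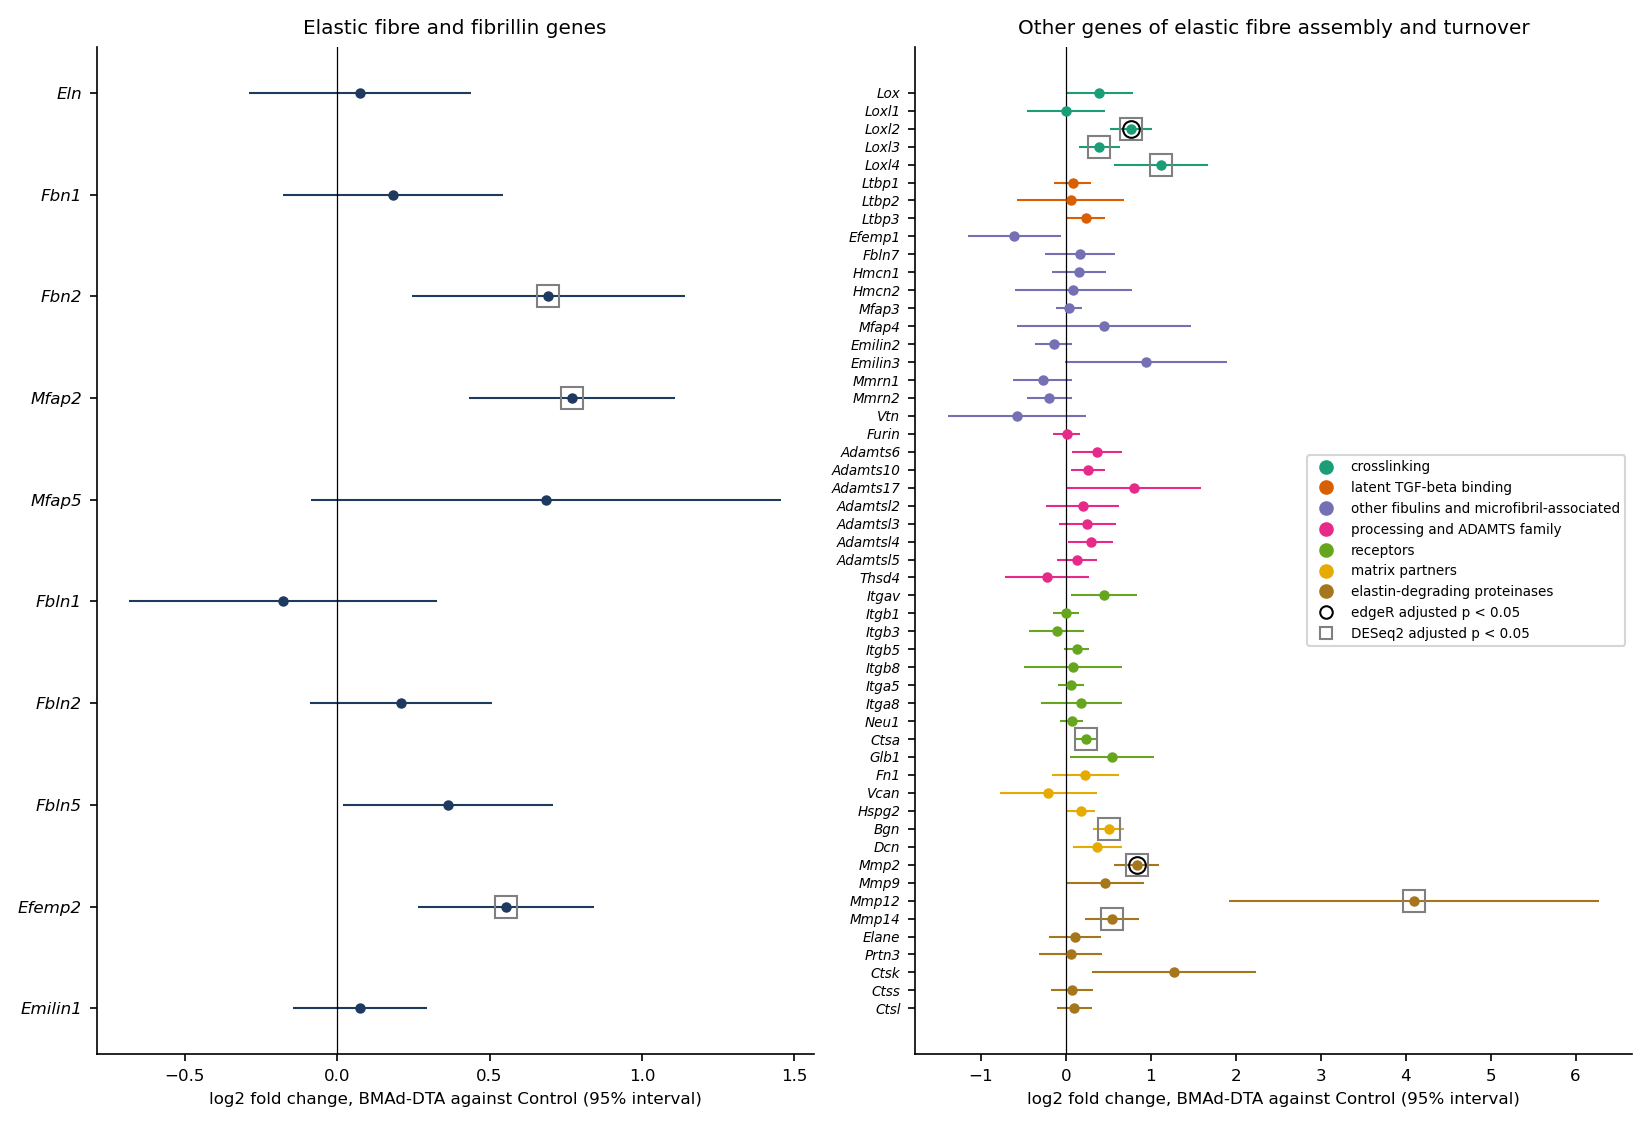
Log2 fold change of BMAd-DTA against Control with its 95% interval, for the 10 members (left) and for 52 other genes of elastic fibre assembly, binding and turnover, coloured by role (right). The axes differ in range. Circles mark genes with an edgeR adjusted p under 0.05 (Loxl2 and Mmp2) and squares those with a DESeq2 adjusted p under 0.05, among them Fbn2, Mfap2 and Efemp2.

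Within the control group, Control replicate 3 had the highest control level of 7 members (Eln, Fbn1, Fbn2, Fbln1, Fbln2, Fbln5 and Efemp2), and Control replicate 1 the lowest of 5 (Fbn1, Fbn2, Mfap2, Fbln5 and Efemp2). Over the 11 libraries, with the group mean subtracted from each log2 CPM value, 33 of the 45 pairs of members had a Pearson correlation above 0, with a median of 0.33. The matching share over pairs of all genes was not computed, so this count cannot be read as particular to the members. The pair Fbn1 and Fbln5 had the highest value (0.78) and Fbn1 and Mfap5 the lowest (-0.53). By the same measure, and among genes of 50 or more counts on average, those most like Eln were Mapre3 (0.95), Sema6c (0.95), Epn2 (0.89), Jag1 (0.89) and Ephb3 (0.88). Those most like Fbn1 were Tubb2b (0.96), Nsg1 (0.93), Kng2 (0.93), Kif1a (0.92) and Slc4a3 (0.90). All of these correlations rest on the same 11 libraries and their scaling, and are descriptions.

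To set the members against each other, levels were divided by exon length, as CPM per kb of exon. Over all 11 libraries Fbln5 had the highest mean (27.6 CPM per kb), then Emilin1 (18.1), Fbln1 (17.1), Fbn1 (12.9), Mfap2 (9.55), Efemp2 (9.24), Fbln2 (4.04), Eln (2.25), Mfap5 (1.62) and Fbn2 (1.29). Fbln5 was above Emilin1 in 10 of 11 libraries, and Fbn1 above Mfap2, Efemp2 above Fbln2 and Fbln2 above Eln in all 11. The order of other neighbours was less firm, since Emilin1 was above Fbln1 in 7, Mfap2 above Efemp2 in 6, and Mfap5 above Fbn2 in 8. In controls alone Fbln1 came before Emilin1 and Efemp2 before Mfap2, with means of 18.5 for Fbln1 and 17.5 for Emilin1, and of 7.12 for Efemp2 and 6.59 for Mfap2. Elastin itself was the third lowest of the 10, below Fbn1 and the 4 fibulins.

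**Figure D3:**
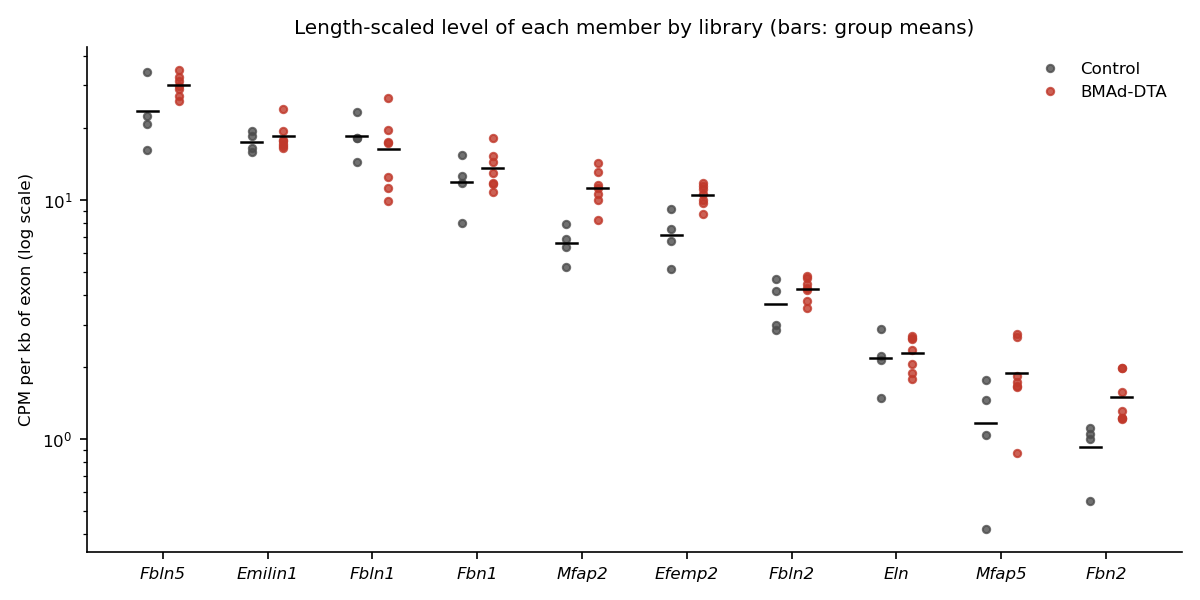
Level of each member in CPM per kb of exon on a log scale, ordered by the mean over all 11 libraries, with 1 point per mouse and a bar at the group mean. The range runs from Fbln5 (27.6 CPM per kb) to Fbn2 (1.29 CPM per kb), and Mfap2 and Fbn2 have no overlap between the groups.

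Expressed as a share of the summed per-kb level of the 10 genes in each library, Mfap2 made up 6.01% to 8.53% in controls and 8.71% to 11.2% in BMAd-DTA mice, so that the groups did not overlap on this scale either. Efemp2 made up 7.62% ± 0.912 in controls (SD, n = 4) and 9.54% ± 0.867 in BMAd-DTA mice (SD, n = 7). The share of Fbln1 was 19.9% ± 2.74 in controls (SD, n = 4) and 14.6% ± 4.03 in BMAd-DTA mice (SD, n = 7), with overlapping groups. The shares of Eln were 2.34% and 2.10%. These shares rest on the same counts as the levels above and were not tested.

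The other genes of the pathway were taken from a list of 55, of which 52 were tested. The list was chosen with earlier results of these data known, so its counts beside all genes are descriptions. Ltbp4 and Mmp7 were not analysed here, and Itgb6, with 28 counts in all, was too low to test. The fitted level was higher for 43 and lower for 9, where 50.4% of all genes were higher, and the median log2 fold change was 0.17. By edgeR, Loxl2 and Mmp2 passed after adjustment (2 of 52, both higher, against 0.0788% of all genes). DESeq2 called 8 of the 52 higher and 0 lower, against 5.42% of all genes. These were Loxl2, Loxl3, Loxl4, Ctsa, Bgn, Mmp2, Mmp12 and Mmp14. The groups did not overlap for 5 of them (Loxl2, Loxl4, Bgn, Mmp2 and Mmp12), with BMAd-DTA mice higher, as for 1.78% of all genes. Both edgeR calls were lost (adjusted p up to 0.142) with a skeletal muscle score as covariate, without Control replicate 1 or 2, without BMAd-DTA replicate 1, 4 or 6, and without the most muscle-rich library of each group, and that of Loxl2 also without BMAd-DTA replicate 3. Over all settings the log2 fold change ran from 0.71 to 0.86 for Loxl2 and from 0.78 to 0.88 for Mmp2.

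The lysyl oxidases crosslink elastin and collagen. All 5 had a positive log2 fold change, with a median of 0.39. Loxl2 was at 31.4, 39.0, 38.9 and 33.2 CPM in controls and ran from 49.4 to 72.4 CPM with a median of 58.7 in BMAd-DTA mice, so it rose with no overlap between the groups (log2 fold change 0.77, standard error 0.11, adjusted p = 0.0326 in edgeR's test). Loxl4, with the largest difference of the family, was at 5.02, 7.60, 6.80 and 4.82 CPM in controls and ran from 8.79 to 22.7 CPM with a median of 11.7 in BMAd-DTA mice. The groups of Loxl4 did not overlap, and its log2 fold change was 1.12 (standard error 0.26), with an adjusted p = 0.072 by edgeR and 0.00105 by DESeq2. For Loxl3 the value was 0.39 (adjusted p = 0.114 by edgeR and 0.0296 by DESeq2). Loxl1, the family member tied most closely to elastin, had a value of 0.0042, with Control replicate 3 at 172 CPM and the other controls between 74.6 and 88.9 CPM.

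The proteinases that can cut elastin or activate those that do had a positive log2 fold change in 9 of 9, with a median of 0.45. Mmp2, gelatinase A, was at 87.3, 89.3, 103 and 102 CPM in controls and ran from 137 to 206 CPM with a median of 167 in BMAd-DTA mice. Mmp2 rose, with all 7 values above the controls (log2 fold change 0.83, standard error 0.12, adjusted p = 0.0326 by edgeR). For Mmp14, the membrane proteinase that activates the Mmp2 product, the value was 0.54 (adjusted p = 0.0992 by edgeR and 0.0107 by DESeq2). Mmp12, the macrophage elastase, was at 1.21, 0.353, 3.96 and 0.207 CPM in controls, from 4 to 67 counts, and ran from 5.85 to 79.0 CPM with a median of 8.37 in BMAd-DTA mice. The groups of Mmp12 were apart, the spread within each was more than 10-fold, and the log2 fold change of 4.10 (standard error 1.01) had an adjusted p = 0.0841 by edgeR and 0.00217 by DESeq2. At the other end Prtn3, a neutrophil serine proteinase, had a value of 0.055.

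**Figure D4:**
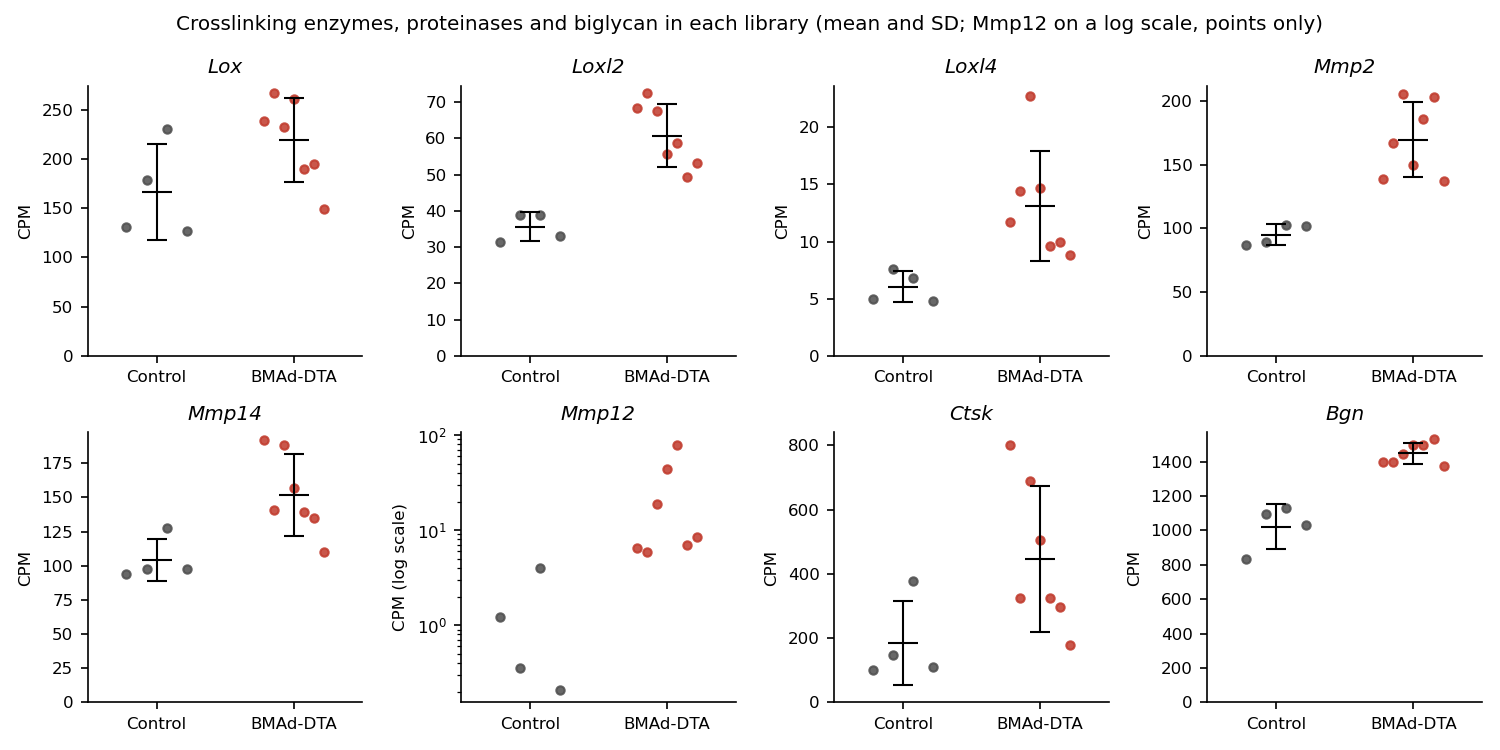
Level in CPM of 4 crosslinking or matrix genes (Lox, Loxl2, Loxl4, Bgn) and 4 proteinases (Mmp2, Mmp14, Mmp12, Ctsk) in each library, with the mean and SD. Mmp12 is drawn on a log axis as points alone, and the other axes start at 0. The groups do not overlap for Loxl2, Loxl4, Mmp2, Mmp12 and Bgn.

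Among the matrix partners 4 of 5 had a positive log2 fold change. Biglycan, a small proteoglycan of bone matrix that binds elastic fibre proteins, was at 833, 1098, 1130 and 1031 CPM in controls and ran from 1376 to 1534 CPM with a median of 1443 in BMAd-DTA mice, with no overlap. The log2 fold change of Bgn was 0.50 (standard error 0.086), with an adjusted p = 0.0531 by edgeR and 1.86e-06 in DESeq2, while Vcan, the large proteoglycan versican, was at -0.21 (adjusted p = 0.756 in edgeR's test). Of the receptors, which take in integrins and the lysosomal genes of the elastin receptor complex, 8 of 10 were positive, from -0.11 for Itgb3 to 0.54 for Glb1. Ctsa, which protects the neuraminidase of that complex, had a value of 0.24 (adjusted p = 0.0955 by edgeR and 0.0100 by DESeq2).

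The remaining groups had no gene past either tool's adjusted threshold. The ADAMTS and processing genes, several of which shape fibrillin microfibrils, were positive in 8 of 9 (median 0.25), from -0.22 for Thsd4 to 0.80 for Adamts17. The latent TGF-beta binding proteins, which anchor the growth factor to fibrillin, were positive in 3 of 3 (median 0.077), from 0.056 for Ltbp2 to 0.24 for Ltbp3. Other fibulins, emilins and microfibril proteins split into 6 positive and 5 negative (median 0.038), from -0.61 for Efemp1 to 0.94 for Emilin3. Efemp1, which encodes fibulin-3, was the 1 gene of the list with an unadjusted p under 0.05 and a lower level. It was at 29.2 ± 2.94 CPM in controls (SD, n = 4) and 19.1 ± 7.06 CPM in BMAd-DTA mice (SD, n = 7). Of these 7 values 6 were under all controls, with an adjusted p = 0.247 by edgeR.

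Markers of other cells of a whole tibia were read in the same libraries. Of 10 osteoblast and osteocyte markers, all 10 had a positive log2 fold change. By edgeR 1 was called and by DESeq2 8, against 0.0788% and 5.42% of all genes. Their summed level was 1972 to 7871 CPM in controls and 9970 to 21167 CPM in BMAd-DTA mice. Control replicate 1, which was lowest for 5 members, stood apart here at 1972 CPM, with the other controls between 6718 and 7871 CPM. Col1a1 made up most of this sum, at 1245 to 6226 CPM in controls and 7609 to 18037 CPM in BMAd-DTA mice. Sp7, Alpl and Sost did not overlap between the groups either, and the other osteoblast and osteocyte markers did. The chondrocyte markers tested (6 of 8) were all positive too, of which edgeR called 0 and DESeq2 1. Their summed levels were 195 to 369 CPM against 497 to 660 CPM. Control replicate 1 was again the lowest (195 CPM, the other controls 326 to 369 CPM). The separation of this sum came from Col2a1 (105 to 271 CPM against 393 to 580 CPM), and the other chondrocyte markers overlapped. All 8 adipocyte markers had a negative log2 fold change, with summed levels of 651 to 1345 CPM against 242 to 871 CPM. The sums overlapped between the groups for the other tissues that make elastic fibres, namely vascular smooth muscle (437 to 580 CPM against 471 to 594 CPM), tendon and fibrous tissue (1985 to 4396 CPM against 2823 to 5050 CPM) and fibroblasts and periosteum (1065 to 1393 CPM against 1043 to 1458 CPM). By sign, 9 of 10 tendon markers were positive (0 called by either tool), 3 of 10 smooth muscle markers (0 called) and 5 of 8 fibroblast and periosteum markers, of which DESeq2 called 2 and edgeR 0. Most of the tendon sum came from Prg4, at 1412 to 3665 CPM in controls and 2202 to 4019 CPM in BMAd-DTA mice. The overlap of that sum therefore mainly describes Prg4. The fibroblast and periosteum sum is carried by Gsn, at 653 to 947 CPM in controls. Postn, a periosteal matrix gene, was at 51.7 to 126 CPM in controls and 158 to 317 CPM in BMAd-DTA mice, with no overlap. It was the only marker of its list with separate groups, and all other fibroblast and periosteum markers overlapped, Gsn among them. All single marker genes in this paragraph are named after their values were seen. Endothelial markers summed to 648 to 800 CPM against 539 to 775 CPM, neutrophil markers to 22267 to 25916 CPM against 18336 to 26793 CPM and erythroid markers to 12027 to 27994 CPM against 16089 to 29079 CPM. Negative values were found for 5 of 6 endothelial, 4 of 8 neutrophil and 6 of 7 erythroid markers tested. Among these lists edgeR called 0 and DESeq2 1, an erythroid marker. All 12 skeletal muscle markers had a negative log2 fold change (median -0.93), with none called by either tool, and their sum varied from 18 to 1351 CPM in controls and from 19.9 to 1050 CPM in BMAd-DTA mice, with the highest in Control replicate 3 and BMAd-DTA replicate 6. The part of any of these markers in the levels of the elastic fibre genes was not tested, beyond fits with a score as a covariate. With a skeletal muscle score the log2 fold changes of Fbn2 and Mfap5 were 0.60 and 0.90, and with a tendon score they were 0.82 and 0.45. With the tendon score Mfap2 was at 0.87 and passed in edgeR's test (adjusted p = 0.0429). This score is the mean log2 CPM of the 10 tendon and fibrous tissue markers, each weighted alike. Of these, Tnmd, Scx, Mkx and Kera were at 5.49 CPM or less in every library. How well the score measures tendon content was not tested.

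**Figure D5:**
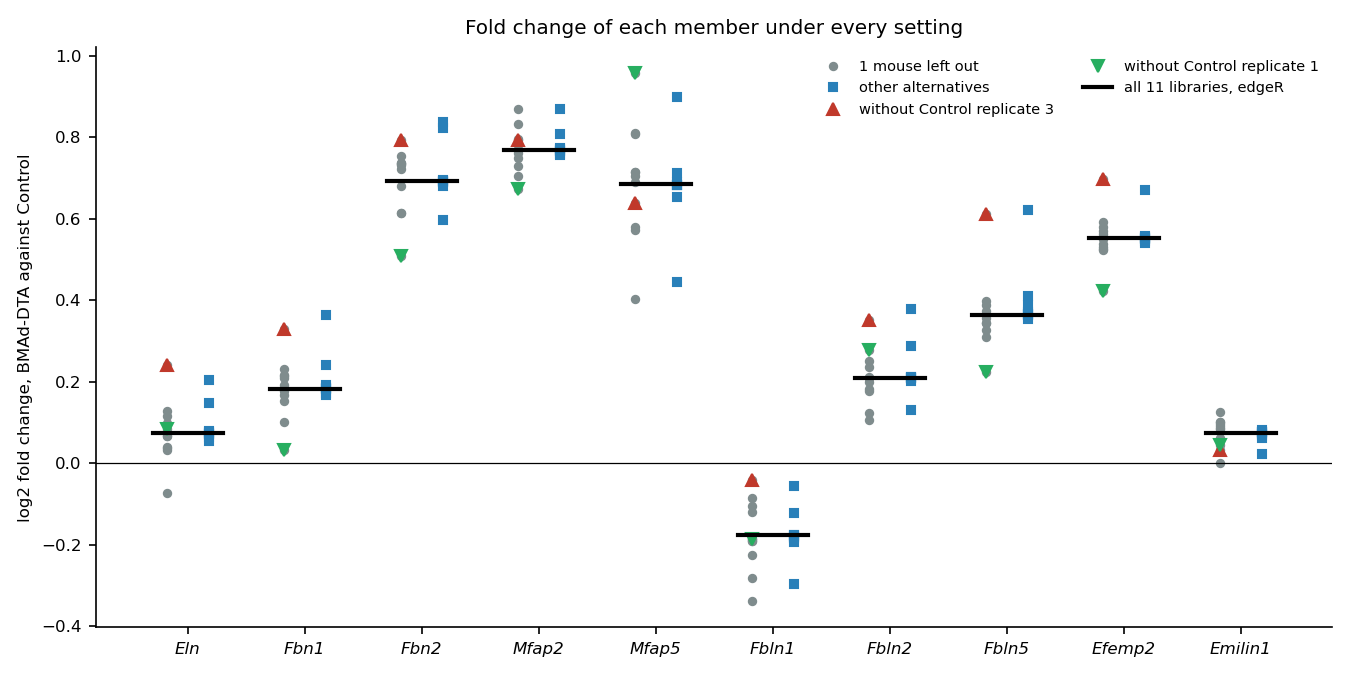
Log2 fold change of each member under every setting, with the value from all 11 libraries as a bar, 1 mouse left out as grey points (Control replicate 1 and 3 as triangles) and other settings as squares. Fbln1 stays below 0 and 8 members stay above 0 throughout, and Eln goes below 0 without Control replicate 4.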

How the data were processed

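RNA-Seq of distal tibiae was strand specific. The authors checked reads with FastQC 0.11.9, aligned them with STAR at default settings to mm10, and deposited raw counts of read pairs per gene. The merged table, with 22600 genes, was used, and its 248600 values equal those of the matching strand in the single-library tables. The members and all lists of genes were chosen with earlier results of these data known. Tests used edgeR 4.0.16 under R 4.3.3 (filterByExpr, TMM, glmQLFit and glmQLFTest, genotype only, two-sided, Benjamini-Hochberg over 16496 genes). The standard error is the log2 fold change over the square root of F. DESeq2 1.42.0 at default settings was an alternative, with other scalings, no filter, marker scores as covariates and each mouse left out. Positions and exon lengths come from GENCODE M21, which matched 99.9% of identifiers. All 10 members are named, and of the wider list the extremes of each role and every gene past an adjusted p of 0.05. A further alternative was added after seeing the data. On simulated data for the same comparison, in which 200 genes differed by 1 on the log2 scale, edgeR recovered 83.5% to 91.5% of them in 3 simulations. False calls numbered 3 to 11. The simulated difference is larger than that of any member (at most 0.77), and genes were simulated independently of each other. The recovery therefore does not give the power for the members. Counts per sample and variation among mice both bound the precision, and the common biological coefficient of variation was 0.202. The standard error was 0.23 for Fbln1, with 14500 counts over all libraries, and 0.16 for Mfap2, with 2244.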

Additional observations from a re-analysis of the deposited data

Results flagged for a closer look

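Of 78 groups of samples checked for a single value far from the others, 7 held one. For independent groups, chance gives about 1 in 20. These groups share the same 11 libraries, so an excess over that rate was not tested. Among the 20 groups of members the flag fell on Emilin1, at 118 CPM in BMAd-DTA replicate 1 against 81.3 to 95.6 CPM in the other BMAd-DTA mice. Loxl4 was at 22.7 CPM in BMAd-DTA replicate 3, with the others between 8.79 and 14.7 CPM. Control replicate 3 stood apart from the other controls for Ltbp3 (176 CPM against 122 to 127 CPM), Loxl1 (172 CPM against 74.6 to 88.9 CPM) and Mmp14 (127 CPM against 94.4 to 97.7 CPM). The summed vascular smooth muscle markers were 594 CPM in BMAd-DTA replicate 1, with 471 to 516 CPM in the others of the group. The summed neutrophil markers were 18336 CPM in BMAd-DTA replicate 5, with 23247 to 26793 CPM in the others.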

How the results depend on the processing

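Of the alternatives other than leaving out a mouse, 86 values of the members kept their sign and side of the threshold and 4 passed it (Mfap2, Efemp2 and Fbn2 in DESeq2, Mfap2 with the tendon score). With 1 mouse left out, 106 kept both, 3 passed and 1 changed sign, Eln, which ran from -0.073 without Control replicate 4 to 0.24 without Control replicate 3. DESeq2 called 845 genes, 3 members and 8 genes of the wider list, where edgeR called 13, 0 and 2. Of the other genes named, sign changed for Loxl1 (-0.12 to 0.37 with 1 mouse left out, -0.0049 with library totals without scaling), Ltbp2 (-0.11 to 0.20), Thsd4 (-0.35 to 0.027), Prtn3 (-0.062 to 0.13), Itgb3 (-0.23 to 0.0034) and Vcan (-0.40 to 0.11), the ranges with 1 mouse left out. Relative log expression scaling gave 20 genes in all. A skeletal muscle score as covariate gave 3 genes and 0 of the wider list, and a tendon score gave 166 genes, 1 member and 4 of the wider list. Without the most muscle-rich library of each group (Control replicate 3 and BMAd-DTA replicate 6, an alternative chosen after seeing the data) the counts were 1 in all and 0 of the wider list, and Thsd4 was at 0.081 and Prtn3 at -0.11. Leaving out 1 mouse gave 0 to 292 genes in all, 0 to 3 members and 0 to 6 of the wider list. The highest counts came without Control replicate 3, and the wider list had 0 calls without replicate 1 or 2 of the controls, or without replicate 1, 4 or 6 of the BMAd-DTA group. The cause of these shifts was not tested. The median log2 fold change of all genes was 0.0018 and moved furthest to -0.010, with library totals without scaling. No paired analysis was possible because the replicate numbers only follow the order of the samples. Mfap5, with 1134 counts over all libraries, is the member with the least depth. It also varied widely among mice, with an SD of 49.8% of the mean in controls and 34.3% in BMAd-DTA mice.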
